A study of Mus musculus with 6 samples.

Results

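The genes described here encode the machinery that copies DNA before a cell divides, 49 genes chosen by name for their role in replication and measured in cultured mouse oligodendrocyte progenitor cells (OPCs), cycling glia of the brain that can mature into the cells that make myelin. All 49 were among the 18743 annotated genes of the deposited tables, each matched by its Entrez gene identifier. The cells came from cortices of wild type C57BL/6 pups, at postnatal day 1 by the labels, selected with beads against PDGFRα (CD140) and expanded for 3 days. Of 6 samples, 3 had then received 50 µM hemin, a heme molecule whose iron is oxidised, and 3 had received vehicle (0.25% DMSO), both for 12 h; the labels give DMSO for vehicle alone. RNA-seq of these 6 samples was deposited as RSEM's expected counts, which are estimated reads per transcript, and as FPKM, which scales them by transcript length and library size. The labels do not say whether replicates came from separate litters or whether pups were pooled, so p-values reflect only how far these samples scatter, and that scatter may be technical.

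Replication starts at origins, where the origin recognition complex (ORC) sits on DNA and, with CDC6 and CDT1, loads the MCM2-7 helicase. CDC45 and the GINS complex turn the loaded helicase into an active one, primase and polymerase α lay down primers, and polymerases δ and ε extend them, held to the template by the PCNA clamp that replication factor C loads. Most of these genes are transcribed as cells pass from G1 into S phase, under E2F transcription factors that the RB proteins hold in check. In the developing brain OPCs are a main dividing population, and they leave the cell cycle as they differentiate.

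Promoter sequence is shown first, since the binding letters of E2F are the feature that textbook accounts give these genes in common. Of the 49 genes, 41 had an entry in the RefSeq promoter table (GRCm38.p6), which holds 250 bases before and 50 bases after each start site. The letters TTTCCCGC, TTTGGCGC, TTTCGCGC and TTTGCCGC were searched on both strands. At least 1 of the 4 words stood in the promoters of 15 of these 41 genes (36.6%), against 492 of 10184 tested genes with an entry (4.83%). Counted over promoters rather than genes, 15 of 50 held one (30.0%), against 518 of 13067 promoters of tested genes (3.96%) and 744 of all 32851 promoters in the table (2.26%). CCAAT on either strand was found for 25 of 41 genes and for 4416 of the 10184 tested genes (43.4%). The 160 bases before the start site follow for 5 genes that hold a word there, 4 that fell with hemin (Mcm6, Mcm5, Cdc6, Gins3) and 1 that did not change detectably (Orc3), and for Orc4, the gene that rose, whose promoter holds none. Pola1 and Rfc3, which were not called, and Orc1, which was not tested, also hold words in that stretch and are not printed. Capitals mark the matched words, and each sequence runs 5′ to 3′ on the strand of its gene.
Mcm6 (chr1:128359706-128359865, minus strand): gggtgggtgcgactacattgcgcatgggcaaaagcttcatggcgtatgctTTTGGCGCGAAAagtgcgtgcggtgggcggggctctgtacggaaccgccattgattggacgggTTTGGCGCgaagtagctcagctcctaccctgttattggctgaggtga
Mcm5 (chr8:75109349-75109508, plus strand): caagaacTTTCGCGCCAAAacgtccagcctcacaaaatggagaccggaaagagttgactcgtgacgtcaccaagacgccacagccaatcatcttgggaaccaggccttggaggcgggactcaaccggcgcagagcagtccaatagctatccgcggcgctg
Cdc6 (chr11:98907991-98908150, plus strand): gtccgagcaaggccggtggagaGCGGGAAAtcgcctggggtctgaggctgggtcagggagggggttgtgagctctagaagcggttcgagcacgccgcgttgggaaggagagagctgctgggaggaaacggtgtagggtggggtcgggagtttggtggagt
Gins3 (chr8:95633399-95633558, plus strand): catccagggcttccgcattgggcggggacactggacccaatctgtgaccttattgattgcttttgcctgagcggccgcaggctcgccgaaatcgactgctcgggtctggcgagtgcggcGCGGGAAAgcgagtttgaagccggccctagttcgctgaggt
Orc3 (chr4:34614943-34615102, minus strand): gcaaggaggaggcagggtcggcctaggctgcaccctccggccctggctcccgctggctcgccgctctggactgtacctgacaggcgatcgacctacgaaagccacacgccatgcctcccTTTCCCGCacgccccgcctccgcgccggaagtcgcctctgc
Orc4 (chr2:48950082-48950241, minus strand): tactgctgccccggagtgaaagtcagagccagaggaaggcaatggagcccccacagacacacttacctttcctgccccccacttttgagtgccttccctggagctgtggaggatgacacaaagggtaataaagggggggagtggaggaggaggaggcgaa

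In Mcm6 the words begin 110, 106 and 47 bases before the start site, and the first and the second overlap on opposite strands. Mcm5 has an overlapping couple too, beginning 153 and 149 bases before the start site. A single word begins 138 bases before the start of Cdc6 and 41 bases before those of Gins3 and Orc3. The letters were found in 9 of the 25 genes with a promoter entry that fell and in 5 of the 14 that were not called. Most of the genes that fell thus held none, as Orc4 did. These matches describe letters in a window and were not tested as binding sites.

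Expected counts over all genes summed to between 6339966 and 6523639 per library. Of 12779 genes that passed the filter on low counts, 48 were members, and Orc1, with 27 counts over the 3 hemin libraries and 5 over the 3 vehicle libraries, was left out of the test. Among those 48, 28 fell with hemin (58.3%), 1 rose and 19 were not called, at an adjusted p below 0.05 in edgeR's quasi-likelihood test. Over all genes tested 15.7% fell and 16.2% rose, 31.9% in either direction. The median log2 fold change of the 48 was -0.66, with an interquartile range from -1.01 to -0.24, and that of all genes tested was 0.00. The falls ranged from 1.34-fold to 3.42-fold, and 13 of the 48 fell at least 2-fold, as 5.81% of all genes did. All 3 hemin libraries lay below all 3 vehicle libraries for 36 of 48 members, including every one of the 28 that fell, against 27.5% of all genes tested. They lay above for Orc4 alone, as for 21.5% of all genes tested, and the groups overlapped for 11. In bulk RNA, fewer cells in S phase and less of each transcript per cell cannot be told apart. 

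**Figure D1:**
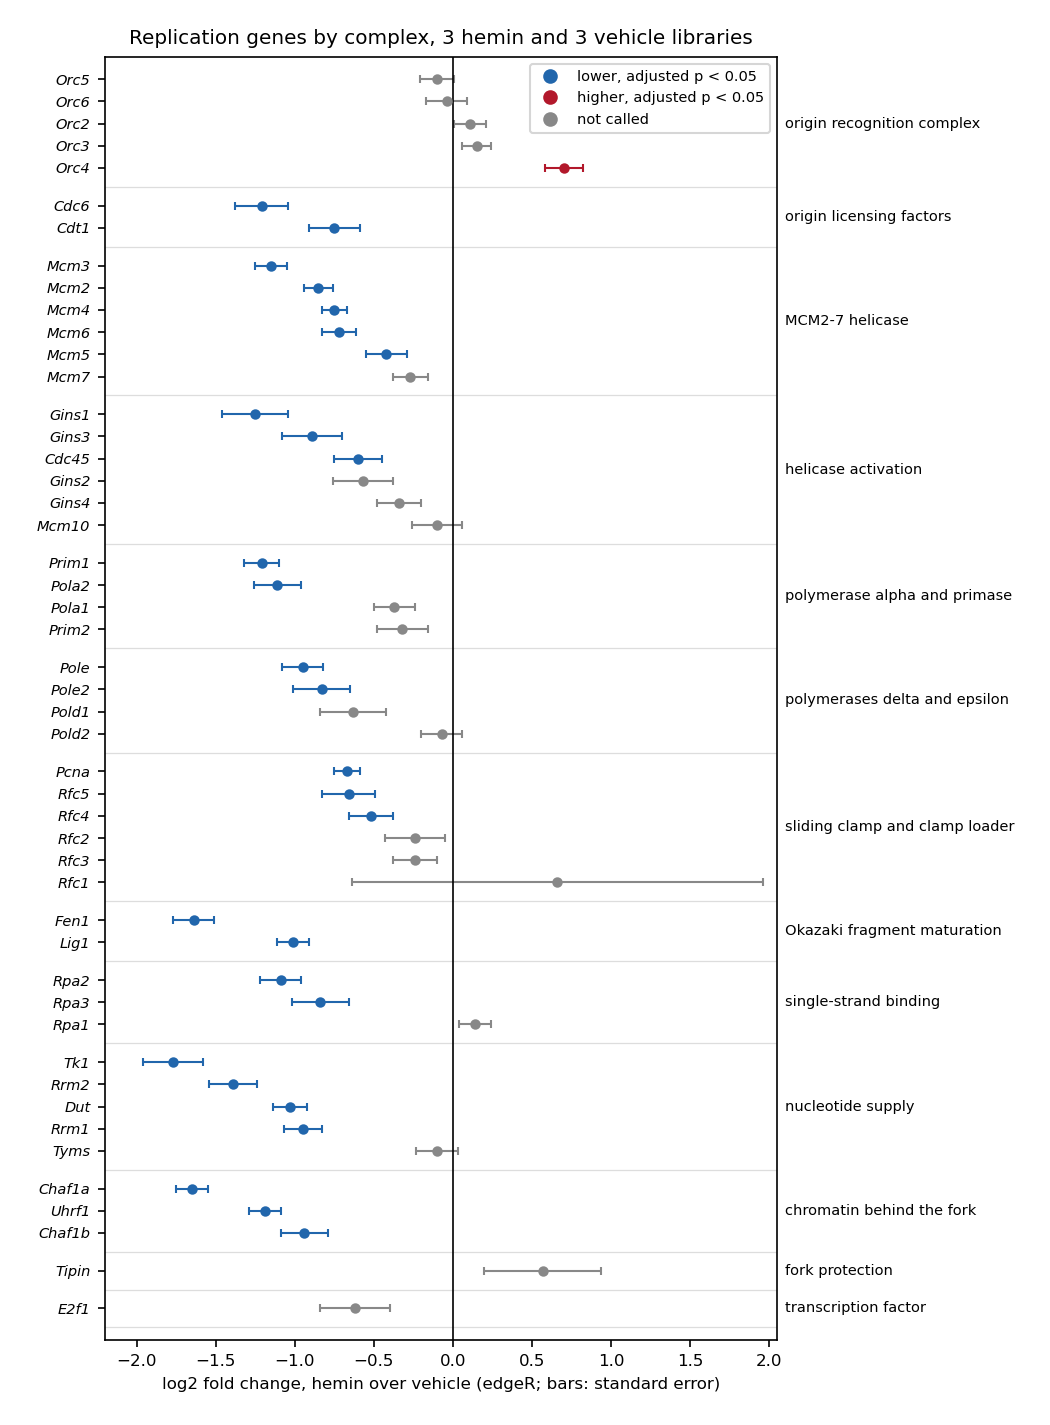
Log2 fold change of each tested gene, hemin over vehicle, from edgeR, with its standard error, grouped by complex; blue points fell, the red point rose and grey points were not called. The 3 genes of chromatin behind the fork, both genes of Okazaki fragment maturation and both licensing factors lie left of 0, while the origin recognition genes lie around 0 except Orc4 at 0.70.

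Taken as a sum of FPKM, the 49 genes stood at 1038, 1157 and 1288 in hemin replicates 1 to 3, against 1938, 1940.0 and 1839 in vehicle replicates 1 to 3. As a share of all expected counts they held 0.336%, 0.375% and 0.406% of the hemin libraries and 0.634%, 0.632% and 0.607% of the vehicle libraries. The groups did not overlap on either measure, and the hemin libraries spread more than the vehicle libraries. Hemin replicate 1 gave the lowest hemin value for 34 of the 48 tested members, whereas it gave the lowest for 43.3% of all genes tested. Without that library 28 members fell, with a median log2 fold change of -0.56.

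**Figure D2:**
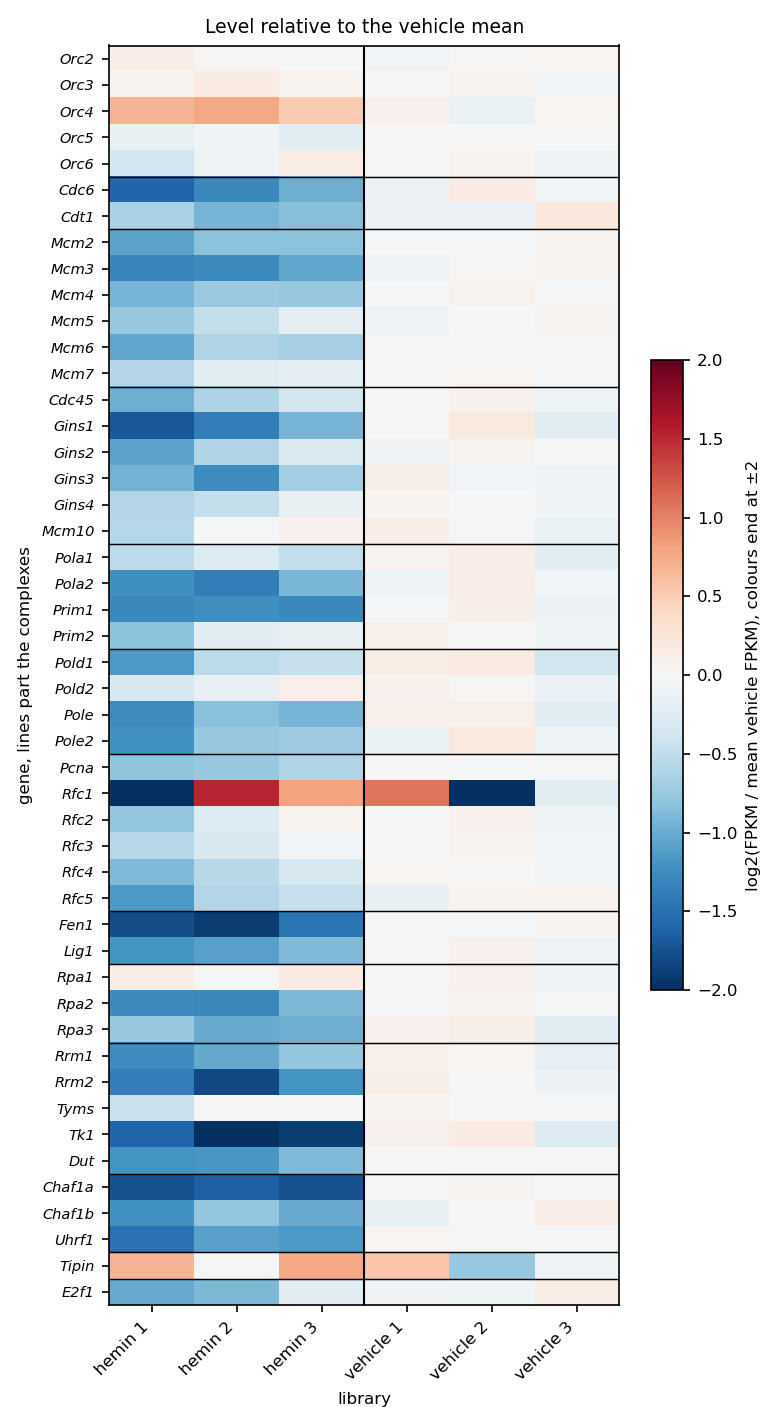
FPKM of each tested gene in each library relative to its mean over the vehicle libraries, on a log2 scale whose colours end at ±2; lines part the complexes. The hemin columns are blue for most rows, Orc4 is red in all 3, and Rfc1 varies within both groups.

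Of the 5 tested genes of the origin recognition complex 0 fell, 1 rose and 4 were not called, where 15.7% of all genes tested fell and 16.2% rose. So few genes do not set the complex apart from all genes. Counts for the complexes below have the same limit, since none holds more than 6 tested genes. No complex was tested as a set. By edgeR and by DESeq2, 0 of them were lower even at an unadjusted p below 0.05. Orc4 (gene identifier 26428), an ATPase subunit of ORC, had 22.8, 24.3 and 20.5 FPKM with hemin, against 15.1, 12.99 and 14.5 FPKM with vehicle. All hemin values were above all vehicle values, and the 1.62-fold rise passed (log2 fold change 0.70 ± 0.12 SE, edgeR adjusted p = 0.00432) as it did in every alternative run. One of its exons overlaps an exon of Acvr2a on the other strand over 446 bases in the GENCODE annotation of GRCm38, and strandedness of the libraries is not stated. Orc3 (gene identifier 50793), whose product joins the ORC core, stood at 9.67, 10.4 and 9.86 FPKM with hemin, against 9.32, 9.69 and 9.03 FPKM with vehicle, and these values differed by less than the test could call (log2 fold change 0.15 ± 0.09 SE, edgeR adjusted p = 0.264). Orc5 (gene identifier 26429), another ATPase subunit, was at 17.3, 18.2 and 16.3 FPKM with hemin, against 19.3, 19.1 and 19.2 FPKM with vehicle. The hemin libraries lay just below the vehicle libraries, without a call (log2 fold change -0.10 ± 0.11 SE, edgeR adjusted p = 0.542). Orc2 and Orc6 had log2 fold changes of 0.11 and -0.04, neither called. Orc1, the subunit whose level follows the cell cycle, was listed at 0 in hemin replicate 2 and in vehicle replicates 1 and 3, and its highest FPKM was 0.63.

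Both licensing factors fell, as did 15.7% of all genes tested. Cdc6 (gene identifier 23834), the ATPase that joins ORC to load the helicase, had 2.39, 2.96 and 3.68 FPKM with hemin, against 6.61, 8.10 and 6.90 FPKM with vehicle, a 2.32-fold fall (log2 fold change -1.21 ± 0.17 SE, edgeR adjusted p = 0.0027). Cdt1 (gene identifier 67177), which brings MCM2-7 to the origin, had 11.1, 9.18 and 9.67 FPKM with hemin, against 16.1, 16.1 and 20.2 FPKM with vehicle, a 1.68-fold fall (log2 fold change -0.75 ± 0.16 SE, edgeR adjusted p = 0.0109). For both genes the groups were apart, and Cdc6 had a lower FPKM than every subunit of MCM2-7 in either.

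Most of the helicase genes fell, by differing fold changes, and differences between subunits were not tested. Of the 6 subunits of MCM2-7, 5 fell and Mcm7 was not called, where 15.7% of all genes tested fell. The median log2 fold change of the 6 was -0.74. Mcm3 (gene identifier 17215), a core subunit, had 24.4, 25.4 and 29.9 FPKM with hemin, against 57.8, 61.9 and 63.7 FPKM with vehicle. It fell 2.23-fold, the most in the ring (log2 fold change -1.15 ± 0.10 SE, edgeR adjusted p = 0.000446). Mcm2 (gene identifier 17216), a subunit that also binds histones, had 25.9, 30.8 and 30.7 FPKM with hemin, against 53.6, 53.01 and 56.2 FPKM with vehicle, and fell 1.80-fold (log2 fold change -0.85 ± 0.09 SE, edgeR adjusted p = 0.000913). Mcm7 (gene identifier 17220), a further core subunit, had 60.02, 77.6 and 79.6 FPKM with hemin, against 90.5, 92.1 and 87.8 FPKM with vehicle. Its hemin values were all below its vehicle values, yet the difference was not called (log2 fold change -0.27 ± 0.11 SE, edgeR adjusted p = 0.0913); it was called with library totals alone (log2 fold change -0.36, edgeR adjusted p = 0.0468) and after quantile normalization (-0.43, limma adjusted p = 0.0111). Mcm4 and Mcm6 fell 1.69-fold and 1.65-fold. Mcm5 fell 1.34-fold, and its call was lost in 6 of 18 alternatives, among them each omission of a vehicle replicate (edgeR adjusted p from 0.104 to 0.141). With vehicle, Mcm6 and Mcm7 had the highest FPKM of the ring at 90.3 ± 1.57 and 90.1 ± 2.18 (SD, n = 3). With hemin, Mcm7 stood alone at the top at 72.4 ± 10.8 FPKM, and Mcm3 was at the bottom at 26.5 ± 2.92, where Mcm5 had been with vehicle.

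Of the 6 factors that activate the helicase, 3 fell and 3 were not called, where 15.7% of all genes tested fell. Gins1 (gene identifier 69270), a subunit of the GINS tetramer, had 6.80, 8.40 and 11.5 FPKM with hemin, against 21.9, 25.2 and 18.9 FPKM with vehicle, a 2.38-fold fall (log2 fold change -1.25 ± 0.21 SE, edgeR adjusted p = 0.00487). Gins3 (gene identifier 78833), a second subunit, had 3.33, 2.68 and 4.00 FPKM with hemin, against 6.96, 6.15 and 6.10 FPKM with vehicle, a 1.85-fold fall (log2 fold change -0.89 ± 0.19 SE, edgeR adjusted p = 0.0114) that was lost without vehicle replicate 1 (edgeR adjusted p = 0.0509). The 2 groups were apart for both. Cdc45, the partner of GINS and MCM, fell 1.51-fold, and this call was lost without hemin replicate 2 (edgeR adjusted p = 0.0607), vehicle replicate 1 (0.0775) or vehicle replicate 2 (0.0876). Gins2 and Gins4 were lower in every hemin library than in any vehicle library without reaching the threshold (edgeR adjusted p = 0.0537 and 0.101); Gins2 passed in 7 of 18 alternatives and Gins4 in 3. Mcm10 (gene identifier 70024), which helps start unwinding, had 10.2, 14.8 and 16.2 FPKM with hemin, against 16.7, 14.9 and 13.9 FPKM with vehicle. These values overlapped and no call was made (log2 fold change -0.10 ± 0.16 SE, edgeR adjusted p = 0.679).

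In the complex of polymerase α and primase, the small primase subunit and the accessory polymerase subunit fell, and their partners were not called. Prim1 (gene identifier 19075), the catalytic primase subunit, had 17.6, 18.5 and 17.7 FPKM with hemin, against 42.7, 47.1 and 39.9 FPKM with vehicle. The hemin values lay close together, well under those of vehicle, and the fall was 2.32-fold (log2 fold change -1.21 ± 0.11 SE, edgeR adjusted p = 0.000543). Pola2 (gene identifier 18969), the accessory subunit, had 8.88, 7.96 and 11.1 FPKM with hemin, against 19.7, 22.7 and 20 FPKM with vehicle, a 2.16-fold fall (log2 fold change -1.11 ± 0.15 SE, edgeR adjusted p = 0.00196). Prim2 (gene identifier 19076), the large primase subunit, had 20.5, 31.1 and 32.6 FPKM with hemin, against 38.7, 35.8 and 33.9 FPKM with vehicle. The hemin values were below the vehicle values by a narrow margin, and no call was made (log2 fold change -0.32 ± 0.16 SE, edgeR adjusted p = 0.175). Pola1, the catalytic polymerase subunit, had a log2 fold change of -0.37 (edgeR adjusted p = 0.0626) and passed in 4 of 18 alternatives.

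Of the 4 members that encode subunits of polymerases δ and ε, Pole and Pole2 fell and Pold1 and Pold2 were not called. Among all genes tested 15.7% fell. Pole (gene identifier 18973), the catalytic subunit of the leading-strand polymerase, had 6.27, 8.23 and 7.71 FPKM with hemin, against 15.9, 15.8 and 12.6 FPKM with vehicle, a 1.93-fold fall (log2 fold change -0.95 ± 0.13 SE, edgeR adjusted p = 0.0024). Pole2 (gene identifier 18974), its second subunit, had 5.49, 7.48 and 7.67 FPKM with hemin, against 11.5, 14.6 and 11.9 FPKM with vehicle, a 1.78-fold fall (log2 fold change -0.83 ± 0.18 SE, edgeR adjusted p = 0.0115) that was lost without vehicle replicate 2 (edgeR adjusted p = 0.0591). In both, every hemin library was below every vehicle library. Pold2 (gene identifier 18972), the second subunit of the lagging-strand polymerase, had 18.9, 20.9 and 25.2 FPKM with hemin, against 25, 23.8 and 21.7 FPKM with vehicle, and the groups overlapped (log2 fold change -0.07 ± 0.13 SE, edgeR adjusted p = 0.737). Pold1, the catalytic subunit of that polymerase, was close to the threshold (log2 fold change -0.63, edgeR adjusted p = 0.052) and passed in 6 of 18 alternatives. The remaining subunits, in the list of other replication genes, did not divide by polymerase. Pold3 of polymerase δ fell, and Pold4 of the same polymerase was not called (log2 fold change of 0.44). Pole3 and Pole4 of polymerase ε were not called either (log2 fold changes of -0.10 and 0.24).

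The sliding clamp fell, and the clamp loader did so in part. Pcna (gene identifier 18538), the ring that tethers polymerases to DNA, was the most abundant member by FPKM in both groups, with 184, 189 and 212 FPKM with hemin, against 327, 319.5 and 317 FPKM with vehicle. It fell 1.59-fold (log2 fold change -0.67 ± 0.08 SE, edgeR adjusted p = 0.00139), with the groups far apart. Of the 5 subunits of replication factor C, Rfc4 and Rfc5 fell and 3 were not called, where 15.7% of all genes tested fell. Rfc5 (gene identifier 72151) had 11.1, 16.4 and 17.9 FPKM with hemin, against 22.3, 25.8 and 25.99 FPKM with vehicle, a 1.58-fold fall (log2 fold change -0.66 ± 0.17 SE, edgeR adjusted p = 0.0257). Rfc4 fell 1.43-fold. Each of these calls was lost on leaving out hemin replicate 2 or any vehicle replicate (edgeR adjusted p from 0.0548 to 0.108). Rfc1 (gene identifier 19687), the large subunit, had 2, 378 and 227 counts in hemin replicates 1 to 3, against 277, 6 and 113 in vehicle replicates 1 to 3, and its standard error was the widest of the members (log2 fold change 0.66 ± 1.30 SE, edgeR adjusted p = 0.732). Its values differed more within each group than between the groups, and no direction is given. Rfc2 and Rfc3 each had a log2 fold change of -0.24 and were not called. Pcna has 2 processed pseudogenes by name in the GENCODE annotation, and its counts can include reads of such copies.

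Among the genes that finish the lagging strand were some of the largest falls. Fen1 (gene identifier 14156), the nuclease that trims flaps between Okazaki fragments, had 8.71, 8.05 and 10.8 FPKM with hemin, against 29.2, 29.5 and 31.01 FPKM with vehicle, a 3.11-fold fall (log2 fold change -1.64 ± 0.13 SE, edgeR adjusted p = 0.000349). Lig1 (gene identifier 16881), the ligase that joins the fragments, had 21.8, 23.5 and 27.1 FPKM with hemin, against 50.4, 53.1 and 46.6 FPKM with vehicle, a 2.01-fold fall (log2 fold change -1.01 ± 0.10 SE, edgeR adjusted p = 0.000714). In each the hemin values lay well under the vehicle values. Exons of 18 of the 49 members overlap an exon of another gene in the GENCODE annotation, 14 of them one of a coding gene. Fen1 overlaps Tmem258 (75 bases) and an antisense gene (1908 bases) on the other strand, Lig1 overlaps Zswim9 (217 bases) and Tk1 overlaps Afmid (83 bases). The longest overlap with a coding gene is that of Gins2 with Gse1, over 2758 bases. Rfc2, Orc2 and Rfc5 overlap coding genes over 952, 686 and 499 bases, also on the other strand. Pole2 is the 1 member that overlaps a coding gene on its own strand (Gm49384, over 177 bases). Reads from such stretches could be counted for either gene, so these values are uncertain to that extent.

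Replication protein A, which coats single-stranded DNA, is built of 3 subunits, of which 2 fell, where 15.7% of all genes tested did. Rpa2 (gene identifier 19891), the middle subunit, had 11.6, 11.4 and 15 FPKM with hemin, against 27.1, 29.1 and 27.6 FPKM with vehicle, a 2.13-fold fall (log2 fold change -1.09 ± 0.13 SE, edgeR adjusted p = 0.00147). Rpa3 (gene identifier 68240), the small subunit, had 15.7, 13.2 and 13.4 FPKM with hemin, against 28.3, 28.7 and 22.7 FPKM with vehicle, a 1.79-fold fall (log2 fold change -0.84 ± 0.18 SE, edgeR adjusted p = 0.0121) that was lost without vehicle replicate 1 (edgeR adjusted p = 0.0513) or vehicle replicate 2 (0.0537). Rpa1 (gene identifier 68275), the large subunit that holds most of the DNA contacts, was not called: it had 56.2, 49.7 and 57.3 FPKM with hemin, against 51.3, 54.3 and 48.5 FPKM with vehicle. Its groups overlapped (log2 fold change 0.14 ± 0.10 SE, edgeR adjusted p = 0.313).

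Of the 5 genes that supply nucleotides 4 fell, against 15.7% of all genes tested. Tk1 (gene identifier 21877), the thymidine kinase of the salvage pathway, had 10.3, 7.60 and 8.37 FPKM with hemin, against 33.02, 34.8 and 25.6 FPKM with vehicle. Its 3.42-fold fall was the greatest of all members (log2 fold change -1.77 ± 0.19 SE, edgeR adjusted p = 0.000925). Dut (gene identifier 110074), which removes dUTP and provides the precursor of dTTP, had 12.5, 12.8 and 15.5 FPKM with hemin, against 29.1, 28.9 and 27.9 FPKM with vehicle, a 2.04-fold fall (log2 fold change -1.03 ± 0.11 SE, edgeR adjusted p = 0.000913). Rrm1 and Rrm2, the large and small subunits of ribonucleotide reductase, fell 1.94-fold and 2.62-fold, to 47.7 ± 7.78 and 59.8 ± 12.2 FPKM with hemin, against 95.4 ± 8.81 and 162 ± 12.7 FPKM with vehicle (SD, n = 3). Tyms (gene identifier 22171), the thymidylate synthase of the de novo pathway, had 6.82, 9.28 and 8.98 FPKM with hemin, against 9.60, 9.17 and 8.96 FPKM with vehicle. Its groups overlapped and it was not called (log2 fold change -0.10 ± 0.13 SE, edgeR adjusted p = 0.613). The GENCODE annotation names a processed pseudogene of Tyms, and the gene's second transcript, a non-coding one, held 29.9, 16.1 and 22.2 expected counts with hemin, against 35.8, 68.5 and 97.9 with vehicle, of gene totals of 235 to 325 over the 6 libraries.

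All 3 genes that restore chromatin behind the fork fell, as did 15.7% of all genes tested. Chaf1a (gene identifier 27221), the large subunit of the CAF-1 histone chaperone that PCNA recruits, had 6.38, 6.85 and 6.35 FPKM with hemin, against 20.6, 22.1 and 21.2 FPKM with vehicle. It had the smallest p of all members, with a 3.15-fold fall and little spread in either group (log2 fold change -1.65 ± 0.10 SE, edgeR adjusted p = 0.000199). Its exons overlap Ubxn6 on the other strand over 1277 bases. Uhrf1 (gene identifier 18140), which reads hemimethylated DNA and brings in the maintenance methyltransferase, had 21.7, 28.6 and 27.3 FPKM with hemin, against 62.1, 59.6 and 59.8 FPKM with vehicle, a 2.29-fold fall (log2 fold change -1.19 ± 0.10 SE, edgeR adjusted p = 0.000468). Its most abundant transcript held 374, 465 and 387 expected counts with hemin, against 1489, 1536 and 1298 with vehicle, while another was at 141, 339 and 321 with hemin, against 256, 152 and 370 with vehicle; the split between transcripts is the authors' estimate. Chaf1b (gene identifier 110749), the middle subunit of CAF-1, had 8.79, 11.8 and 10.2 FPKM with hemin, against 18.4, 20.4 and 22.2 FPKM with vehicle, a 1.92-fold fall (log2 fold change -0.94 ± 0.15 SE, edgeR adjusted p = 0.00371). The groups did not overlap for any of the 3 genes.

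Tipin (gene identifier 66131), which with Timeless keeps the fork stable, had 10.5, 6.45 and 11.2 FPKM with hemin, against 9.66, 3.87 and 6.13 FPKM with vehicle. The groups overlapped and the gene was not called (log2 fold change 0.57 ± 0.37 SE, edgeR adjusted p = 0.273). Timeless itself, in the list of other replication genes, fell 2.59-fold (log2 fold change -1.37 ± 0.17 SE, edgeR adjusted p = 0.00165). E2f1 (gene identifier 13555), the activating transcription factor of the S phase programme, had 4.20, 4.54 and 7.24 FPKM with hemin, against 8.03, 7.96 and 9.40 FPKM with vehicle. Each hemin value was below each vehicle value, but the difference did not pass (log2 fold change -0.62 ± 0.22 SE, edgeR adjusted p = 0.0639); it passed in 7 of 18 alternatives, DESeq2 among them (DESeq2 adjusted p = 0.0464).

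**Figure D3:**
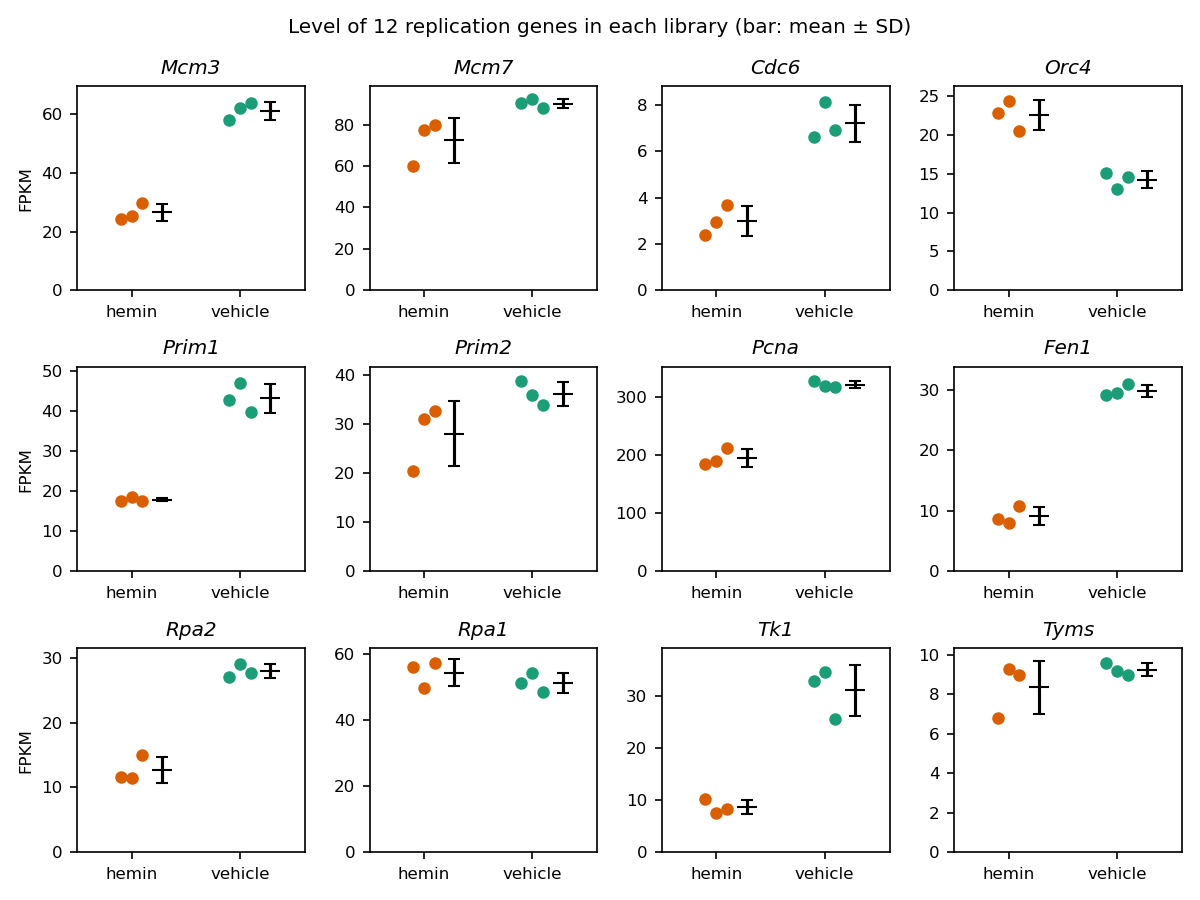
FPKM of 12 genes in each of 3 hemin (left) and 3 vehicle (right) libraries, with the mean and SD beside the points. Mcm3, Cdc6, Prim1, Pcna, Fen1, Rpa2 and Tk1 are lower in every hemin library, Orc4 is higher, and the hemin and vehicle points of Rpa1 and Tyms overlap.

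Partners within a complex were also compared by their ratio. For each complex of at least 3 tested genes, the gene with the smallest p was set over the gene whose fold change lay farthest the other way, within each library, which removes the scaling between libraries. The pairs were picked for their difference, so the ratios are a description without a test. The FPKM ratio of Rpa2 to Rpa1 was 0.206, 0.230 and 0.262 with hemin, against 0.528, 0.535 and 0.569 with vehicle. That of Mcm3 to Mcm7 was 0.407, 0.327 and 0.375 with hemin, against 0.639, 0.672 and 0.725 with vehicle. For Prim1 to Prim2 it was 0.860, 0.596 and 0.542 with hemin, against 1.10, 1.31 and 1.18 with vehicle. The ratio of Orc4 to Orc5 went the other way, with 1.32, 1.34 and 1.26 in hemin libraries and 0.786, 0.682 and 0.758 in vehicle libraries. In 8 of the 9 complexes the ratios of the groups did not overlap, a count that picking pairs by these same values favours. The other is the couple of Pcna and Rfc1, whose ratio rests on the unstable Rfc1.

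**Figure D4:**
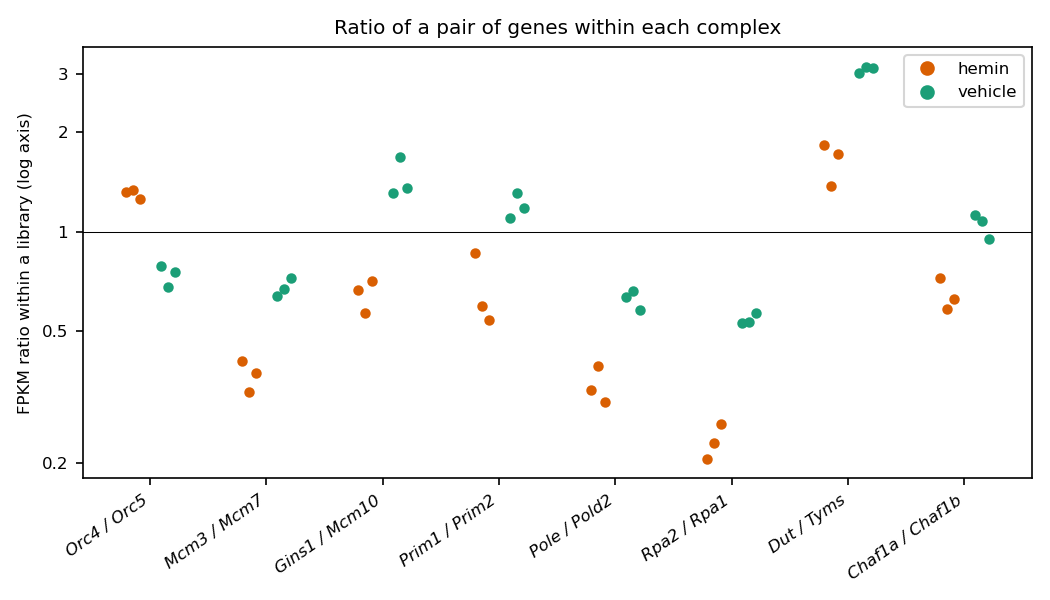
FPKM ratio of a couple of genes of the same complex within each library, on a log axis; orange points are the 3 hemin and green points the 3 vehicle libraries. The hemin points lie below the vehicle points for 7 couples and above for Orc4 over Orc5. The couples were picked for their difference, and the couple with Rfc1 is left out.

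A list of other replication genes was set beside the members. Of its 44 tested genes 23 fell (52.3%) and 2 rose (4.55%), where 15.7% of all genes tested fell and 16.2% rose. The median log2 fold change of the list was -0.46. The number that fell was 14 without vehicle replicate 1 and 14 without vehicle replicate 2. Calls over all genes dropped in those runs too, from 4077 to 2597 and 2551. Nasp, a chaperone of histones H3 and H4, had 49.99, 42.7 and 46.9 FPKM with hemin, against 137, 138 and 129 FPKM with vehicle, a 2.87-fold fall (log2 fold change -1.52 ± 0.10 SE, edgeR adjusted p = 0.000199). Pclaf, which binds PCNA, had 31.4, 28.9 and 40.5 FPKM with hemin, against 117, 118 and 91.1 FPKM with vehicle, a 3.12-fold fall (log2 fold change -1.64 ± 0.15 SE, edgeR adjusted p = 0.000555). Pold3, an accessory subunit of polymerase δ, had 10.5, 11.4 and 10.8 FPKM with hemin, against 23.5, 21.1 and 21.8 FPKM with vehicle, a 1.95-fold fall (log2 fold change -0.96 ± 0.10 SE, edgeR adjusted p = 0.000935). All 3 were apart between groups. In the other direction Asf1a, a histone chaperone, had 22.8, 23.6 and 24.6 FPKM with hemin, against 14.99, 16.4 and 17.4 FPKM with vehicle, a 1.51-fold rise (log2 fold change 0.60 ± 0.11 SE, edgeR adjusted p = 0.00633). Mtbp, a factor of origin firing, was the other gene that rose. Asf1b, the other ASF1 gene of the list, fell 2.42-fold (log2 fold change -1.28 ± 0.14 SE, edgeR adjusted p = 0.000965), with the groups apart.

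In a list of 24 regulators of the cell cycle 11 genes fell (45.8%) and 2 rose (8.33%). It holds E2F, RB and Lin genes, cyclins, and others such as Cdk2 and the inhibitors Cdkn1a and Cdkn1b. Over all genes tested 15.7% fell and 16.2% rose. Falls in this list numbered 9 without vehicle replicate 1 and 8 without vehicle replicate 2. Cdkn1a, the p21 inhibitor of cyclin-dependent kinases, had 465, 272 and 348 FPKM with hemin, against 83.9, 57.2 and 79.8 FPKM with vehicle, a 5.11-fold rise (log2 fold change 2.35 ± 0.24 SE, edgeR adjusted p = 0.000855). The other that rose was Lin37, a subunit of a repressor complex of cell cycle genes. The other Lin genes of the list did not rise. Lin52 fell (log2 fold change -0.79, edgeR adjusted p = 0.0112), and Lin9 and Lin54 were not called (-0.59 and -0.30). Of the RB genes, Rbl1 and Rbl2 fell (log2 fold changes of -1.12 and -0.43) and Rb1 was not called (0.07). Ccne1, the cyclin of S phase entry, had 4.87, 3.64 and 4.13 FPKM with hemin, against 13.01, 17.6 and 18.6 FPKM with vehicle, a 3.75-fold fall (log2 fold change -1.91 ± 0.21 SE, edgeR adjusted p = 0.000993). E2f8, a repressing E2F that is itself made in S phase, had 4.44, 4.96 and 5.98 FPKM with hemin, against 11.7, 12.7 and 13.6 FPKM with vehicle, a 2.39-fold fall (log2 fold change -1.26 ± 0.14 SE, edgeR adjusted p = 0.00101). Of 20 mitosis genes 11 fell (55.0%) and 0 rose by edgeR or by DESeq2, also at an unadjusted p below 0.05, with a median log2 fold change of -0.56. Without hemin replicate 1, 1 of them (Ccnb2) was called higher. The number that fell was 4, 5 and 6 without vehicle replicate 1, vehicle replicate 2 and hemin replicate 2. Calls over all genes numbered 2597, 2551 and 2888 in those runs, against 4077 with all libraries. Mki67, the proliferation marker, had 39.95, 52.5 and 45.3 FPKM with hemin, against 124, 113 and 84.3 FPKM with vehicle, a 2.26-fold fall (log2 fold change -1.17 ± 0.16 SE, edgeR adjusted p = 0.00208). Plk1, a mitotic kinase, had 23.7, 17.7 and 21.8 FPKM with hemin, against 54.9, 45.99 and 40.5 FPKM with vehicle, a 2.15-fold fall (log2 fold change -1.10 ± 0.16 SE, edgeR adjusted p = 0.00279). Bub1b, of the spindle checkpoint, fell 1.77-fold, to 11.8, 13.4 and 17.6 FPKM with hemin, against 29.6, 27.4 and 21.6 FPKM with vehicle (log2 fold change -0.83 ± 0.17 SE, edgeR adjusted p = 0.0088). These lists are set beside the members by counts and medians, and no difference between them was tested.

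**Figure D5:**
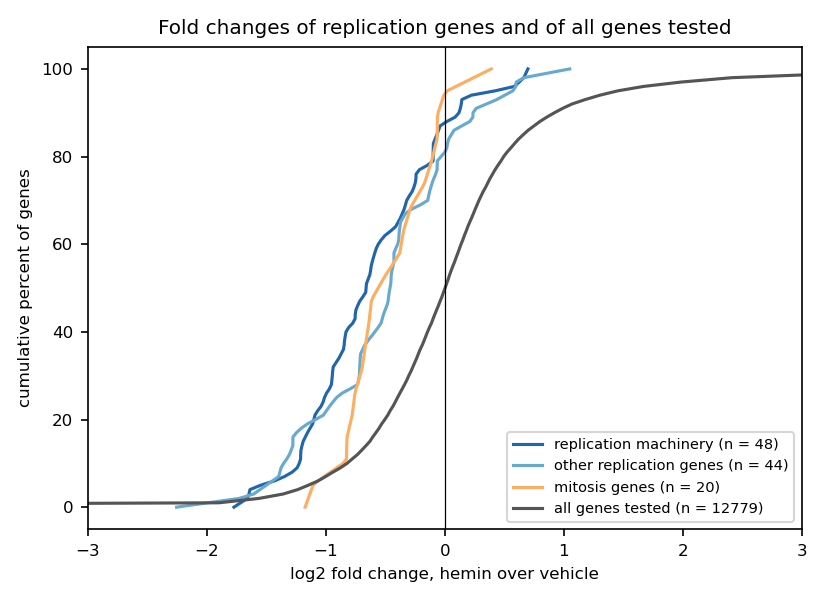
Cumulative percent of genes against log2 fold change, hemin over vehicle, for the 48 tested members, 44 other replication genes, 20 mitosis genes and all 12779 genes tested. The 3 lists lie left of all genes, with medians of -0.66, -0.46 and -0.56, against 0.00 for all genes.

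Some markers of cell types were also called in these libraries, and their part in the replication results was not tested. Of all genes tested 15.7% fell and 16.2% rose, and only the OPC list, with 9 falls among 10, stood far from these shares. The other lists hold 5 to 10 tested genes, too few for their counts of calls to set them apart from all genes. All 10 OPC markers passed the filter on low counts, and 9 of them fell. Pdgfra, the receptor the cells were sorted on, had 12.6, 31.6 and 26.9 FPKM with hemin, against 108, 148 and 105 FPKM with vehicle, a 4.93-fold fall (log2 fold change -2.30 ± 0.31 SE, edgeR adjusted p = 0.00222). The FPKM of the 10 summed to 391 to 595 with hemin, against 1217 to 1470.3 with vehicle. Of 6 tested oligodendrocyte markers 2 fell (sums of 30.4 to 45.2 with hemin, 42.4 to 69.4 with vehicle), Mog was listed in no library and Mobp was at 0 in all 3 vehicle libraries. Astrocyte markers gave 3 falls and 1 rise among 8 (sums of 379.5 to 514 with hemin, 459 to 550.1 with vehicle), and neuron markers 3 falls and 1 rise among 10 (113 to 153 with hemin, 193 to 228 with vehicle). Microglia markers were scarce, with 1 rise among 5 tested of 8 and sums of 13.9 to 15.8 FPKM with hemin, against 6.10 to 10.4 with vehicle; Tmem119 was at 0 in vehicle replicates 1 and 2. Vessel and fibroblast markers summed to 6.95 to 15.1 FPKM with hemin, against 3.49 to 7.93 with vehicle, with 2 rises among 6 tested of 9. Some of these counts are unsteady. Without vehicle replicate 1 there was 1 fall among astrocyte markers and 1 among oligodendrocyte markers, and without hemin replicate 2 also 1 among oligodendrocyte markers. Astrocyte falls numbered 2 without hemin replicate 2 or vehicle replicate 2. Neuron marker falls numbered 6 with library totals alone and 5 by DESeq2. The microglia rise was not called without vehicle replicate 2 or vehicle replicate 3.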

How the data were processed

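RNA-seq of 3 hemin and 3 vehicle OPC libraries was deposited by the authors as RSEM's expected counts per transcript, with RSEM and Bowtie 0.12.2 as tools per the submitters' processing notes. FPKM values were deposited by the authors beside them. The notes list the builds mm8 and mm9 without a role, so no coordinates of the files are given. Expected counts were summed per gene, rounded, and taken as 0 where a library did not list a transcript; 18711 of 18743 identifiers matched the RefSeq gene table of GRCm38.p6. Libraries held 6339966 to 6523639 counts. Tables of unannotated features were not used.

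Genes were filtered with filterByExpr by group, scaled by TMM and tested with edgeR 4.0.16 (glmQLFit, glmQLFTest; R 4.3.3), with Benjamini-Hochberg adjustment over 12779 genes and a threshold of 0.05. A standard error is the absolute log2 fold change divided by the square root of F. The procedure was also run on simulated counts, in which far fewer genes changed than were called here. Those changes were of at least 2-fold, in equal numbers up and down. The simulation thus does not speak to smaller falls or to the scaling between groups. Alternatives were DESeq2 1.42.0, limma 3.58.1 on log2(FPKM + 0.1, 0.5 or 1), other scalings and filters, the most abundant transcript alone, a replicate block and leaving out each library.

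Members and lists were chosen with earlier results of these data known. Named genes are, per complex, the 2 with the smallest p and the one whose fold change lay farthest the other way, and all of complexes of 1 or 2; per list, the 3 called genes with the smallest p and the one against the majority. Other genes named were chosen after their values were seen.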

Additional observations from a re-analysis of the deposited data

How the results depend on the processing

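Of the 28 members that fell, 21 passed in all 18 alternatives and 7 (Mcm5, Cdc45, Gins3, Pole2, Rfc4, Rfc5, Rpa3) did not in at least 1; Orc4 was the 1 member that rose in each. Members that fell numbered 22 to 31 on leaving out 1 library and 27 to 33 otherwise, with median log2 fold changes of -0.75 to -0.56. Genes called numbered 4077, and 2551 to 4530 on leaving out 1 library (2597 without vehicle replicate 1, 2551 without vehicle replicate 2). Other replication genes that fell numbered 23, and 14 to 24 on leaving out 1 library (14 without vehicle replicate 1, 14 without vehicle replicate 2). With library totals alone, 1715 genes rose and 2582 fell (39.9% of calls rose, against 50.8% with TMM), and the median of all genes was -0.09. Signs turned for genes that were not called: Orc6 was 0.01 with the stricter filter, 0.06 with the most abundant transcript and 0.06 without hemin replicate 1; Orc3 was -0.18 and Tyms 0.13 with the most abundant transcript; Tyms was 0.00 and Mcm10 0.05 without hemin replicate 1; Rfc1 was -0.17 without hemin replicate 2. On leaving out each library the range was -0.15 to 0.06 for Orc6, -0.21 to 0.05 for Mcm10, -0.17 to 1.83 for Rfc1 and -0.18 to 0.00 for Tyms. The cause was not tested. Whether the replicate numbers pair the samples is not stated in the labels, and the values do not settle it. Same-numbered libraries correlated at 0.0631, 0.1003 and 0.1573 in their deviations from the group means. These values are low, but each library correlated best with its own number. The main fit had no replicate block. With a replicate block, 30 members and 21 other replication genes fell and 3728 genes were called. Depth limits genes as scarce as Orc1.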
